A study of Mus musculus with 6 samples.

Results

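The VEGF and angiopoietin signalling genes measured here are 10 genes picked by name from the 54532 genes listed for epididymal fat. They are the VEGF ligands Vegfa, Vegfb, Vegfc and Vegfd, the VEGF receptors Kdr, Flt1 and Flt4, the angiopoietins Angpt1 and Angpt2, and the angiopoietin receptor Tek. RNA-Seq was performed on the whole epididymal (visceral) fat of male C57BL/6J mice, with 3 samples on a normal diet (ND, 4.5% fat) and 3 on a high-fat diet (HFD, 60% fat). The mice, otherwise untreated, were placed on the diets when 4 weeks old and kept on them for 16 weeks. The labels do not say whether a sample was 1 mouse or a pool, so p-values measure the spread between these samples. HFD was compared with ND to see how obesity changes the visceral fat, here its vessel growth signals.

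VEGF ligands and angiopoietins are secreted proteins that act on receptor tyrosine kinases of the vessel wall. VEGF-A, which adipocytes and other cells release and which is known to respond to low oxygen, drives the growth of endothelial cells mainly through VEGFR2, the product of Kdr. VEGFR1, the product of Flt1, binds VEGF-A and VEGF-B tightly but signals weakly and can act as a decoy, while VEGF-C and VEGF-D act on VEGFR3, the product of Flt4, on lymphatic endothelium. Angiopoietin-1, made largely by cells around the vessel, activates the endothelial receptor Tie2, encoded by Tek, and keeps vessels quiet and tight. Angiopoietin-2, made by endothelial cells, mostly opposes it and is known to loosen vessels before they sprout.

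Upstream sequences from RefSeq (GRCm38.p6) were found for 8 of the 10 genes and for Angpt4. Angpt1 and Angpt2 had no entry. The 250 bases before the transcription start are shown for Vegfa and Kdr, which were low in the same HFD samples, and for Angpt4, a further angiopoietin that fell. The capitals mark GGGCGG (the GC box), TATAAA, and ACGTG or GCGTG, the core letters bound by hypoxia-inducible factors, each searched on both strands. A match on the other strand appears in capitals as its reverse complement, CCGCCC or CACGC, and in these windows no matches overlap.
Vegfa, chr17:46032378-46032627, minus strand: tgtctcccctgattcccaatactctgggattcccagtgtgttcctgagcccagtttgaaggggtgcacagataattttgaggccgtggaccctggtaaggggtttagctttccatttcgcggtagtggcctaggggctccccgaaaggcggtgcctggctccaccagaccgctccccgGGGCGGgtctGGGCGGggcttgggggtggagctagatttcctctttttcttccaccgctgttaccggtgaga
Kdr, chr5:75978456-75978705, minus strand: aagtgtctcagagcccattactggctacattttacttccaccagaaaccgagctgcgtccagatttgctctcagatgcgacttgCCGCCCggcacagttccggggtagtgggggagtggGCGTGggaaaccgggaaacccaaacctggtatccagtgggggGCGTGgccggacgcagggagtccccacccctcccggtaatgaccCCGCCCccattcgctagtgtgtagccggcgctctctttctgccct
Angpt4, chr2:151910957-151911206, plus strand: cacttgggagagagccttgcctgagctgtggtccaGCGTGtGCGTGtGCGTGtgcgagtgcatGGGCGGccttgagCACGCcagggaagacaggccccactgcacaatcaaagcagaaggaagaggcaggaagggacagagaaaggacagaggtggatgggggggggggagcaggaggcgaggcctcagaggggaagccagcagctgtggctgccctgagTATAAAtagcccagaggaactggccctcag
The Vegfa window shown held GGGCGG at 2 places and neither ACGTG nor GCGTG. A second Vegfa start in the same table, with its window at chr17:46025164-46025413, held each of these motifs except TATAAA at 1 place. That window lies inside the gene, which spans 46016993 to 46032369, so its matches are not upstream of the whole gene. The Kdr window held GCGTG at 2 places and GGGCGG at 2. That of Angpt4 held GCGTG at 4, GGGCGG at 1 and TATAAA at 1, the last of which begins 30 bases before the start. Among the windows of the genes not shown, GCGTG was at 2 places for Vegfb and at 1 for Flt1. Bases more than 250 before the start were not searched. Of all 32851 windows of this length, 38.6% held ACGTG or GCGTG, 32.7% held GGGCGG and 12.4% held TATAAA. A match is a description of the letters, and was not tested for binding.

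The 6 libraries held between 16996896 and 18859320 counts. At this depth 3 counts, used as the floor, equal 0.149 to 0.180 CPM (CPM being the library-size-scaled count, with the TMM factor), a limit that covers counting error only. Of 15751 genes that passed edgeR's filter on low counts, 2504 (15.9%) were called at an adjusted p-value under 0.05, 9.85% higher and 6.04% lower on HFD. All 10 genes passed the filter. Adipocyte markers were abundant in every library, with a summed level of 49122 to 65688 CPM on ND and 23055 to 46944 CPM on HFD. A pair of libraries stood apart. The third ND library held 303 CPM of epithelial and epididymis markers, while the others held 16.3 to 23.6 CPM. The third HFD library had the lowest endothelial and adipocyte levels and the highest macrophage level.

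**Figure D1:**
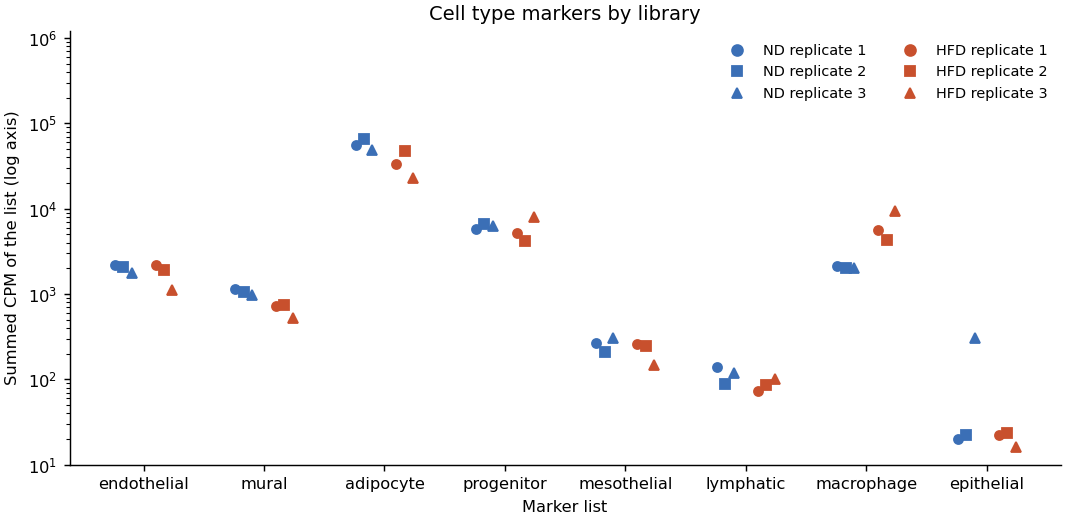
Summed CPM of each marker list (log axis) in the 6 libraries, with 1 point per library, ND in blue and HFD in red. Macrophage markers ran from 2015 to 2114 CPM on ND and from 4335 to 9521 CPM on HFD, and the third HFD library is lowest for endothelial markers at 1129 CPM.

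Compared per gene length, by the FPKM values (which divide the count by gene length and library size), the ligands Vegfb and Vegfa stood first. On ND the level was 107 ± 12.1 FPKM for Vegfb and 62.7 ± 6.69 FPKM for Vegfa (SD, n = 3), and these did not overlap. Kdr followed at 24.1 ± 2.22 FPKM and Tek at 17.7 ± 2.76 FPKM. Vegfd, at 12.9 ± 2.56 FPKM, and Angpt1, at 10.8 ± 1.49 FPKM, overlapped each other. Flt1 had 9.29 ± 0.728 FPKM and Vegfc 4.91 ± 0.489 FPKM. Angpt2, at 3.82 ± 0.827 FPKM, overlapped Flt4, the lowest, at 2.84 ± 0.598 FPKM. On HFD the ranks of Vegfb and Vegfa were the same, while Angpt1 went from rank 6 of the 10 to rank 10 and Angpt2 from rank 9 to rank 7. Several neighbours on HFD overlapped, among them Vegfa and Tek, Tek and Kdr, and Flt1 and Angpt2.

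**Figure D2:**
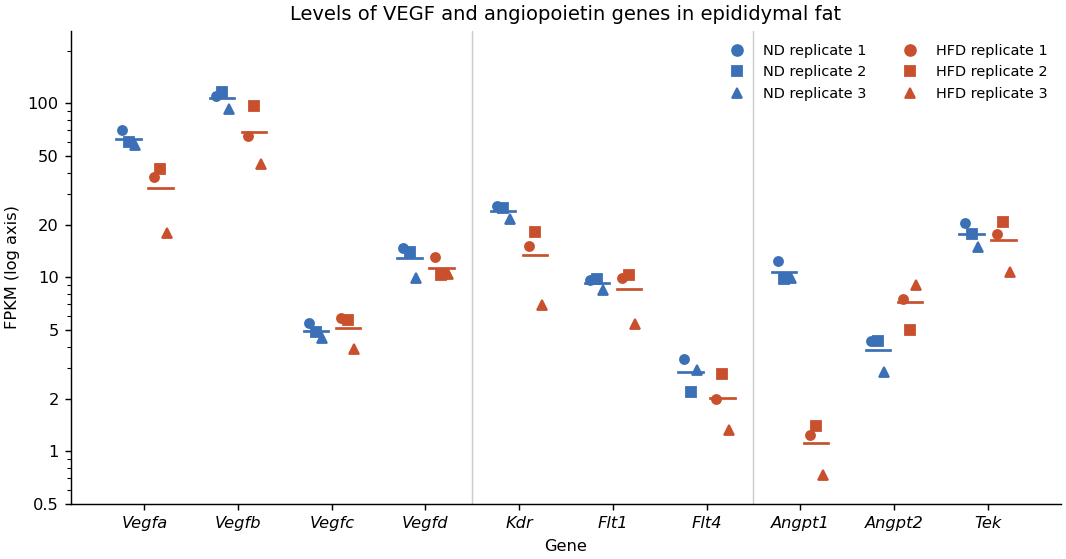
FPKM (log axis) of the 10 genes in each library, ND in blue and HFD in red, with a line at the mean of the 3 samples. Angpt1 lies at 9.84 to 12.5 FPKM on ND and at 0.732 to 1.40 FPKM on HFD, the widest gap between the diets among the 10.

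Among the 10 genes 1 was called lower on HFD and 0 were called higher, against 6.04% and 9.85% of all genes tested, by edgeR's quasi-likelihood test with Benjamini-Hochberg adjustment over all genes tested. DESeq2's Wald test called 3 lower (Angpt1, Vegfa and Kdr) and 1 higher (Angpt2), where it called 3666 of the 18348 genes it tested. The diets did not overlap in 4 of the 10, 3 lower and 1 higher, where 40.9% of all genes tested did not overlap, 21.9% being higher. At an unadjusted edgeR p under 0.05 were 5 of the 10, 4 lower and 1 higher, where 34.0% of all genes tested were. The median log2 fold change of the 10 was -0.32, against 0.01 for all genes tested, and 8 of the 10 values were negative. Leaving out the third ND library gave the same counts of 1 lower and 0 higher. Over all genes 492, 591 and 1003 were called without the first, the second or the third ND library. Without the first HFD library 474 were called, against 2504 with all 6 libraries. Calls lost in these fits, also in the lists below, are to be read beside these counts. Without the third HFD library 2 were called lower, Vegfa being added, where 12.9% of all genes tested were called and 4.58% were lower. Without the second HFD library 4 were called lower and 1 higher, where 24.2% of all genes tested were called.

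Angpt1 was the called gene. Angpt1 (ENSMUSG00000022309, chromosome 15 of GRCm38 from 42424723 to 42676977) had 63.6, 50.2 and 51.3 CPM in the ND samples, against 6.38, 7.22 and 3.80 in the HFD samples. All HFD values were far below all ND values, including those of the first and second HFD samples. The mean fell from 55.0 ± 7.46 CPM to 5.80 ± 1.78 CPM (SD, 3 per diet), 9.49-fold lower on HFD, with a log2 fold change of -3.25 ± 0.25 (SE, edgeR adjusted p = 0.00272). Of the 15751 genes tested 56 had a lower log2 fold change. It was called under all 17 alternatives, and its log2 fold change was between -3.43 and -3.03 when 1 library was left out. The antisense gene Gm17473 shares 737 of the 5205 exon bases of Angpt1, and the strand setting of the counting is not given. It was listed with 4, 2 and 12 counts on ND and 0 in each HFD library, and how reads of the shared bases were assigned was not tested.

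Angpt2 (ENSMUSG00000031465, chromosome 8 from 18690263 to 18741562) measured 15.6, 15.5 and 10.5 CPM in the ND samples, against 27.5, 18.2 and 33.5 in the HFD samples. The HFD samples were all above the ND samples, the second HFD sample by the least. The means were 13.9 ± 2.92 and 26.4 ± 7.68 CPM (SD, 3 per diet), a log2 fold change of 0.93 ± 0.26 (SE, 95% interval 0.32 to 1.54), which did not pass (edgeR adjusted p = 0.0518). It passed with DESeq2's Wald test, with library size only, with robust=FALSE and without the second HFD sample. Among the HFD samples the macrophage markers ran in the same order, the third library having the most of both and the second the least. The progenitor and fibroblast markers ran in that order too, at a summed 5177, 4182 and 8085 CPM. The adipocyte markers, among others, ran in the inverse order, at 33578, 46944 and 23055 CPM. The part of any of these lists in the result was not tested.

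The receptor of both angiopoietins, Tek (ENSMUSG00000006386, chromosome 4 from 94739289 to 94874976), measured 94.4, 82.3 and 69.6 CPM in the ND samples, against 83.4, 97.7 and 50.6 in the HFD samples. These values overlapped, with the highest and the lowest both on HFD. The log2 fold change was -0.09 ± 0.24 (SE, 95% interval -0.66 to 0.49, edgeR adjusted p = 0.828). Its sign turned to 0.12 without the third HFD sample.

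The ratio of Angpt2 to Angpt1 inverted between the diets. In FPKM it was 0.347, 0.435 and 0.289 on ND, where Angpt1 was the more abundant, and 6.08, 3.56 and 12.4 on HFD, where Angpt2 was. The geometric mean of the ratio was 18.4-fold higher on HFD. The exact two-sided permutation test gave p = 0.1, the smallest that 3 samples against 3 allow. With 1 library left out the difference in log2 ratio was between 3.73 and 4.63.

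**Figure D3:**
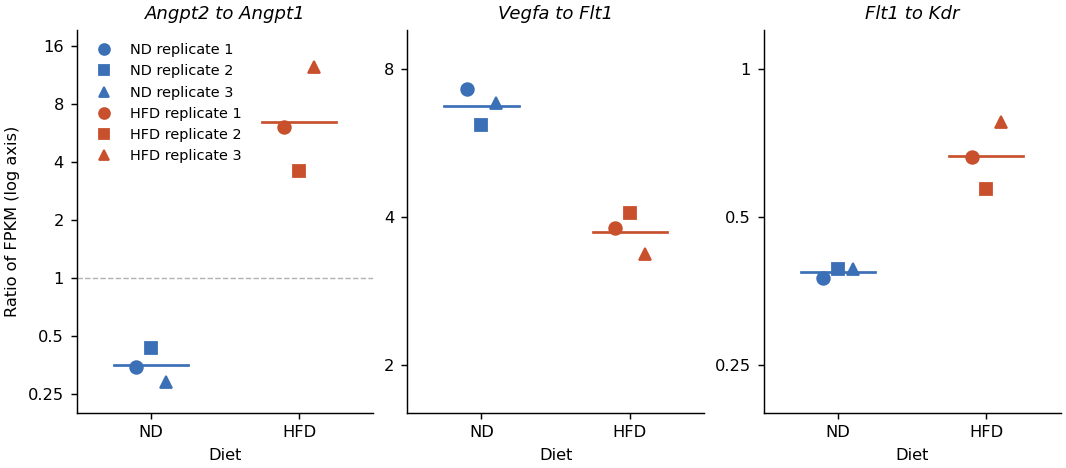
Ratio of FPKM (log axis) of Angpt2 to Angpt1, Vegfa to Flt1 and Flt1 to Kdr in each library, with a line at the geometric mean of each diet. The Angpt2 to Angpt1 ratio is below 0.435 or equal to it on ND and at least 3.56 on HFD, and the diets do not overlap in any of the 3 panels.

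Among the ligands, Vegfa was lower in all HFD samples and Vegfb in most, and Vegfc and Vegfd were at like levels. Vegfa (ENSMUSG00000023951, chromosome 17 from 46016993 to 46032369) measured 295, 253 and 245 CPM in the ND samples, against 162, 179 and 77.3 in the HFD samples. The diets did not overlap, and the third HFD sample was by far the lowest. The log2 fold change was -0.92 ± 0.30 (SE, 95% interval -1.63 to -0.22), 1.90-fold lower, which did not pass (edgeR adjusted p = 0.0779). It passed with DESeq2's Wald test, without the second HFD sample and without the third HFD sample, where the log2 fold change was -0.65. The counts are per gene, so the 13 annotated transcripts of Vegfa, which encode forms that differ in how they bind the matrix, cannot be told apart.

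Vegfb (ENSMUSG00000024962, chromosome 19 from 6982473 to 6987651), a ligand of VEGFR1 linked to fatty acid transport, measured 174, 184 and 149 CPM in the ND samples, against 103, 154 and 72.0 in the HFD samples. The second HFD sample lay within the ND values. Its log2 fold change was -0.63 ± 0.27 (SE, 95% interval -1.25 to -0.0021, edgeR adjusted p = 0.146), and it passed without the second HFD sample, where the log2 fold change was -0.94 (edgeR adjusted p = 0.0152). Vegfc (ENSMUSG00000031520, chromosome 8 from 54077606 to 54187096), the main lymphatic growth factor, measured 13.0, 11.6 and 10.8 CPM in the ND samples, against 14.2, 13.8 and 9.43 in the HFD samples. The values were interleaved, with a log2 fold change of 0.08 (95% interval -0.39 to 0.54, edgeR adjusted p = 0.818). Vegfd (ENSMUSG00000031380, chromosome X from 164373378 to 164402650), the other ligand of VEGFR3, measured 34.8, 32.9 and 23.8 CPM in the ND samples, against 31.2, 24.7 and 25.0 in the HFD samples. These overlapped too, with a log2 fold change of -0.18 (95% interval -0.59 to 0.24, edgeR adjusted p = 0.521). Of the summed FPKM of the 4 ligands, Vegfb made up 57.0% ± 2.39 on ND and 57.9% ± 4.57 on HFD, and Vegfa 33.5% ± 2.40 and 27.3% ± 3.94 (SD, 3 per diet).

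Of the VEGF receptors, Kdr was the one whose diets did not overlap. Kdr (ENSMUSG00000062960, chromosome 5 from 75932827 to 75978458) measured 227, 221 and 193 CPM in the ND samples, against 135, 163 and 62.1 in the HFD samples. As with Vegfa, the second HFD sample was the nearest to ND and the third the farthest. The log2 fold change was -0.83 ± 0.32 (SE, 95% interval -1.60 to -0.07), 1.78-fold lower, and did not pass (edgeR adjusted p = 0.122). It passed with DESeq2's Wald test and without the second HFD sample, and was -0.54 without the third.

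Flt1 (ENSMUSG00000029648, chromosome 5 from 147561604 to 147726011) measured 128, 129 and 113 CPM in the ND samples, against 134, 139 and 72.4 in the HFD samples. The first and second HFD samples were above all ND samples and the third was below them. The log2 fold change of -0.10 (95% interval -0.67 to 0.47, edgeR adjusted p = 0.801) turned to 0.13 without the third HFD sample. The counts include the transcripts for the soluble form of VEGFR1, a secreted decoy, and cannot set them apart. Flt4 (ENSMUSG00000020357, chromosome 11 from 49609263 to 49652739) measured 27.4, 17.8 and 23.9 CPM in the ND samples, against 16.4, 22.7 and 10.9 in the HFD samples. These overlapped, with a log2 fold change of -0.47 (95% interval -1.13 to 0.20, edgeR adjusted p = 0.289). Of 6 lymphatic markers 5 were tested and 0 were called by edgeR, with 3 at an unadjusted p under 0.05 and 2 called lower by DESeq2. Their median log2 fold change was -2.45, with 4 of the 5 negative, and 3 were called lower without the second HFD library. The untested marker, Ccl21a, was taken at its chromosome 4 copy, which held at most 1 count per library, and a further identifier of that name was not used. Prox1, the lymphatic master regulator, which overlaps the antisense gene Prox1os, measured 4.10, 1.04 and 4.78 CPM in the ND samples, against 0.218, 1.14 and 0.460 in the HFD samples (edgeR adjusted p = 0.0653), and the same second ND sample was low for Flt4 and Prox1.

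Kdr took a smaller and Flt1 a larger share of the receptor level on HFD, while the share of Flt4 overlapped, at 7.88% ± 1.65 on ND and 8.69% ± 1.21 on HFD. Of the summed FPKM of the 3 receptors, Kdr made up 66.4% ± 1.08 on ND and 54.8% ± 3.75 on HFD, and Flt1 25.7% ± 0.784 and 36.5% ± 3.24 (SD, 3 per diet). The FPKM ratio of Flt1 to Kdr was 0.375, 0.392 and 0.393 on ND and 0.662, 0.570 and 0.780 on HFD, 1.72-fold higher. The ratio of Vegfa to Flt1 was 7.30, 6.16 and 6.82 on ND and 3.81, 4.08 and 3.36 on HFD, a log2 difference of -0.85. Neither overlapped between the diets, with p = 0.1 for each by the exact two-sided permutation test, and 0.1 after adjustment over the 3 ratios. Both ratios contain Flt1, and the share of other gene pairs without overlap was not computed. Without the third HFD sample the log2 differences were 0.67 and -0.78.

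The receptors and Tek are mainly genes of endothelial cells, so the levels were also taken relative to 15 endothelial markers such as Pecam1, Cdh5 and Cldn5. Any part from other cells, such as the macrophages whose markers rose on HFD, cannot be set apart. By edgeR's test 0 of the endothelial markers were called, 1 had an unadjusted p under 0.05 and DESeq2 called 0, with a median log2 fold change of -0.23. Of these markers 13 had a negative value. Their summed level was 1786 to 2181 CPM on ND and 1129 to 2164 CPM on HFD, and 0 of the 15 were at 0. In bulk tissue, fewer cells of a type and less RNA per cell cannot be told apart. Relative to the mean log2 CPM of these markers, Kdr was at 1.08 ± 0.08 on ND and at 0.39 ± 0.30 on HFD (SD, 3 per diet), a difference of -0.69. Flt1 differed by 0.09 and Tek by 0.12, and the diets overlapped in both. Vegfa differed by -0.76, Angpt1 by -3.01, Angpt2 by 1.15 and Vegfc by 0.31, without overlap. By this measure 5 of the 10 genes did not overlap, Kdr among them. The share of all genes without overlap by it was not computed, and in plain CPM that share was 40.9%. The exact two-sided permutation test gave p = 0.1 for Kdr, Vegfa, Angpt1, Angpt2 and Vegfc, and 0.2 after adjustment over the 10 genes.

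**Figure D4:**
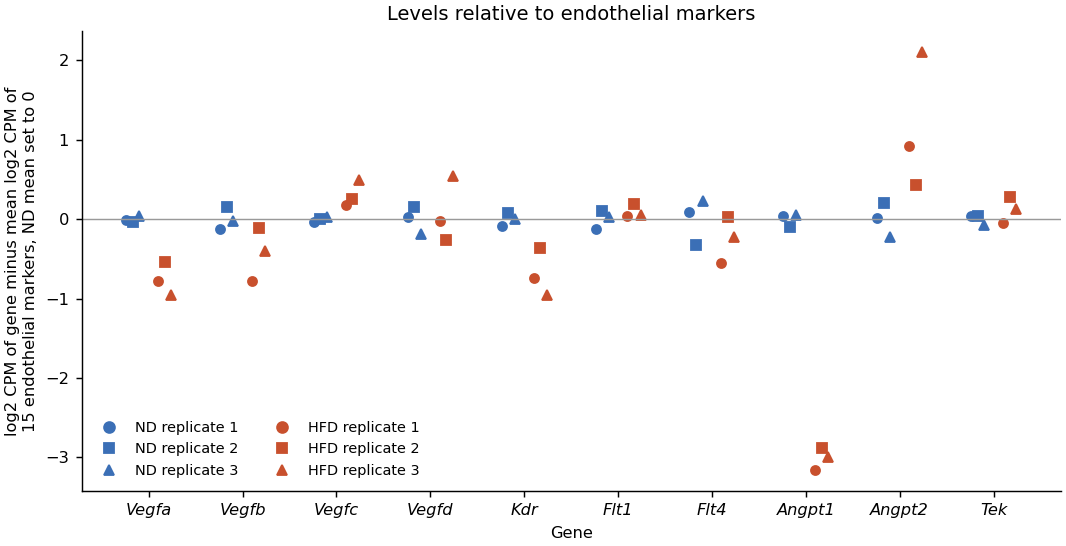
log2 CPM of each gene minus the mean log2 CPM of 15 endothelial markers in the same library, with the ND mean of each gene set to 0 and 1 point per library. Angpt1 sits near -3 in all HFD samples, Kdr and Vegfa are below 0 in each, and Flt1 and Tek lie around 0.

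Taken relative to 15 adipocyte markers, the order differed. The difference was -0.03 for Vegfa and 0.04 for Kdr, with overlap, and -2.29 for Angpt1 without overlap. Angpt2 (1.88), Vegfc (1.04), Tek (0.85), Flt1 (0.82) and Vegfb (0.29) were higher on HFD by this measure without overlap, and Vegfd (0.81) and Flt4 (0.48) overlapped. The mean log2 CPM of the adipocyte markers was itself 11.0, 11.3 and 10.9 on ND and 10.2, 10.8 and 9.26 on HFD. A gene with an unchanged level therefore comes out higher on HFD by this measure. The share of all genes without overlap by it was not computed. The adipocyte list, lowest in the third HFD library, had 4 markers called lower and 0 higher by edgeR's test, namely Adrb3 (whose exons overlap the antisense gene Gm45470), Retn, Slc2a4 and Cfd, with a median log2 fold change of -0.52. By edgeR 0 of the adipocyte markers were called when any of the ND libraries or the first HFD library was left out, with 4 at an unadjusted p under 0.05 in each of these fits. Over all genes these fits called 492, 591, 1003 and 474, against 2504 with all 6 libraries. With no filter on low counts 0 of the adipocyte markers were called as well, with 6 at an unadjusted p under 0.05, and DESeq2 called 6. Their part in the lower Vegfa and Kdr was not tested. Relative to 12 pericyte and smooth muscle markers Angpt1 differed by -2.76 and Vegfa by -0.50 without overlap, and Kdr by -0.43 with overlap. Angpt2 (1.41), Vegfc (0.57), Tek (0.38) and Flt1 (0.35) were higher on HFD by that measure, again without overlap. The share of all genes without overlap by that measure was not computed either. The mean log2 CPM of the pericyte and smooth muscle markers was also lower on HFD (5.11, 5.08 and 4.62) than on ND (5.58, 5.46 and 5.30). A gene with an unchanged level therefore comes out higher on HFD against this list too. In that list 1 gene was called lower, Rgs5, a pericyte gene, which went from 442 ± 35.3 to 198 ± 55.1 CPM (SD over 3 per diet, edgeR adjusted p = 0.0192). It was not called when any of the ND libraries was left out, and DESeq2 called 5 of the list lower. The summed level of the list was 979 to 1161 CPM on ND and 529 to 751 CPM on HFD, its median log2 fold change was -0.43, and 0 of its genes were at 0. Of 15 macrophage markers 10 were called higher and 0 lower, led by Trem2, Adgre1, Cd68 and C1qb (these 4 chosen by the lowest p). Over all genes tested 9.85% were called higher and 6.04% lower, the shares to set beside each marker list. With 1 library left out, 4 were called higher without the first ND, the second ND or the first HFD library, 6 without the third ND library, and 10 or more without the second or the third HFD library. Of 12 progenitor and fibroblast markers 0 were called, with 0 at an unadjusted p under 0.05 and 0 by DESeq2. The same 3 counts were 0 for the 6 mesothelial markers. Of 13 epithelial and epididymis markers edgeR tested 3 and called 0, with 1 at an unadjusted p under 0.05, and DESeq2 gave an adjusted p for 1, which was not called.

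Beyond the 10 genes, 12 other ligands, co-receptors and partners of the same receptors were examined. Of these 2 were called higher and 1 lower, against 9.85% and 6.04% of all genes tested. This list and those below were chosen with earlier results of these data known. Nrp2 (ENSMUSG00000025969, chromosome 1 from 62703285 to 62818695), a co-receptor for VEGF-C and semaphorins, measured 80.1, 76.2 and 57.0 CPM in the ND samples, against 157, 114 and 222 in the HFD samples. All HFD samples were higher, with a log2 fold change of 1.21 ± 0.26 (SE, edgeR adjusted p = 0.0243). Its relative Nrp1, the co-receptor for VEGF-A, had a log2 fold change of 0.14 (95% interval -0.15 to 0.43) and was not called. Svep1, a matrix protein of lymphatic vessel growth whose exons overlap those of the noncoding gene Gm26889, rose from 132 ± 4.96 to 210 ± 25.2 CPM (SD over 3 per diet, log2 fold change 0.66, edgeR adjusted p = 0.0209).

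Angpt4 (ENSMUSG00000027460, chromosome 2 from 151911210 to 151945337), a further Tie2 ligand, fell as well. It measured 132, 33 and 156 counts in the ND samples, against 9, 13 and 29 in the HFD samples, so the second ND sample was close to the HFD samples. The log2 fold change was -2.51 ± 0.66 (SE, edgeR adjusted p = 0.0431), and it did not pass in 4 of the 6 fits that left out 1 library, limma-voom, the replicate block and the 3 FPKM fits. Tie1, the relative of Tek, Ptprb, the phosphatase that acts on Tie2, and Pgf, a ligand of VEGFR1, had log2 fold changes of -0.37, -0.30 and 0.18 and were not called. Without the third ND library 0 of the 12 were called by edgeR, with 4 at an unadjusted p under 0.05, and likewise 0 without the first ND library or the first HFD library, with 3 and 4. Without the third HFD library 2 were called higher and 1 lower. Neither Nrp2 nor Svep1 was called when any of the ND libraries or the first HFD library was left out, or with FPKM without a filter, and Nrp2 was not called with the replicate block (adjusted p = 0.0621).

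**Figure D5:**
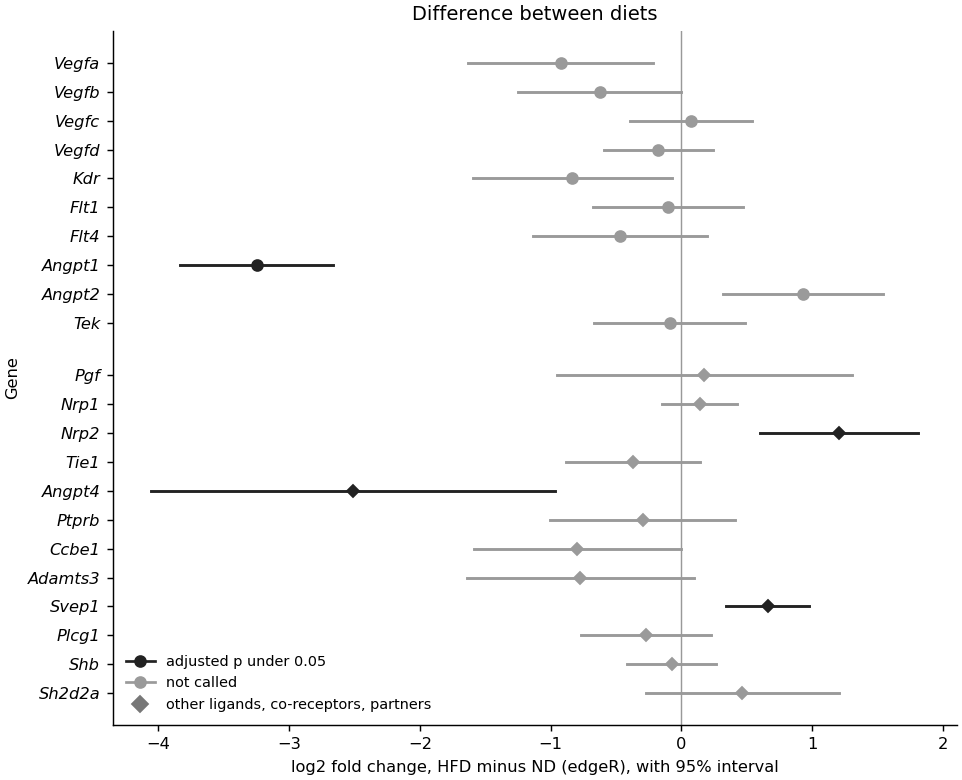
log2 fold change (HFD minus ND) by edgeR with its 95% interval for the 10 genes (circles) and 12 partners (diamonds), black where the adjusted p is under 0.05. Angpt1 at -3.25 and Angpt4 at -2.51 are lower, Nrp2 at 1.21 and Svep1 at 0.66 are higher, and the others are grey.

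Of 8 secreted inhibitors of vessel growth 3 were called higher and 0 lower, against 9.85% and 6.04% of all genes tested. Thbs2, a thrombospondin, measured 26.2, 27.8 and 22.5 CPM in the ND samples, against 107, 110 and 84.0 in the HFD samples (log2 fold change 1.98, SE 0.15, edgeR adjusted p = 0.00259). Thbs1, a further thrombospondin, whose exons overlap the noncoding gene Gm29233, rose from 68.9 ± 21.8 to 279 ± 109 CPM (SD over 3 per diet, edgeR adjusted p = 0.0127). Serpinf1, which encodes PEDF, rose from 123 ± 4.57 to 232 ± 25.1 CPM (SD over 3 per diet, edgeR adjusted p = 0.00918). Thbs2 was called under all 17 alternatives, and Thbs1 was not called without the third ND library, the first ND or the first HFD library, nor Serpinf1 without the first ND library, where 1 of the 8 was left. The median log2 fold change of the list was 0.49.

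Of 12 genes of sprouting vessels and Notch signalling 1 was called lower and 0 higher, against 6.04% and 9.85% of all genes tested. Aplnr, the endothelial receptor of apelin, went from 97.8 ± 13.0 to 45.4 ± 11.4 CPM (SD over 3 per diet, log2 fold change -1.11, edgeR adjusted p = 0.0149). Its ligand gene Apln had a log2 fold change of -0.91 and was not called (edgeR adjusted p = 0.0830), nor was the Notch ligand gene Dll4 at -0.67 (adjusted p = 0.196). Aplnr was not called without the first or the second ND library. The median of the list was -0.31.

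Vegfa is a textbook target of low oxygen, and 20 other genes of that response or its regulators were examined. By edgeR's test 1 was called higher, Car9, a carbonic anhydrase that overlaps the antisense gene Gm12454, at 7, 8 and 14 counts in the ND libraries against 65, 28 and 101 in the HFD libraries (log2 fold change 2.82, adjusted p = 0.0176). Hk2, a hexokinase, was called lower (log2 fold change -1.23, edgeR adjusted p = 0.0462). Neither was called without the first ND, the second ND or the first HFD library, and 0 were called lower without the third HFD library or with the replicate block. The factors Hif1a and Epas1 had log2 fold changes of 0.15 and -0.15 and were not called. The median of the list was 0.00, with 10 positive and 10 negative values. Over all genes tested 9.85% were called higher and 6.04% lower.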

How the data were processed

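Total RNA of epididymal fat was sequenced in 3 ND and 3 HFD samples, grouped by their labels. The study's methods say that the authors aligned the reads by TopHat and Cufflinks, to GRCm38, while the submitters' processing notes list HISAT2 2.0.5, featureCounts 1.5.0-p3 and the human builds GRCh38 and hg38. All matched identifiers are mouse genes. Strand settings and the annotation release were not given in the sources used here. The authors deposited raw counts per gene, and FPKM values, in which gene length and library size are divided out of the counts.

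Names and coordinates came from GENCODE M21 (54495 of 54532 identifiers). HFD was compared with ND with edgeR 4.0.16 (R 4.3.3) by TMM, filterByExpr, glmQLFit (robust=TRUE) and glmQLFTest, fitting diet alone, with Benjamini-Hochberg adjustment and a threshold of 0.05. Intervals follow from the F statistic. Single values were compared by exact two-sided permutation tests (SciPy 1.17.1). FPKM was used to compare genes with each other and CPM to compare samples. log2 CPM for relative levels used a prior count of 2. The alternatives tried included limma-voom (limma 3.58.1), DESeq2 1.42.0, other scalings and filters, robust=FALSE, a replicate block, each library left out, and limma on log2(FPKM + 1) and log2(FPKM + 0.1). References to adipocyte and pericyte markers were added after seeing the data.

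Genes and lists were chosen with earlier results of these data known. Named were the 10 genes, the called genes of each list (at most 4), and the 3 genes most like Vegfa, Kdr and Tek. Further genes named beside them were chosen after their values were seen. On simulated counts edgeR recovered 128 of 200 changed genes among 15500 tested, with 10 false calls in 138. It recovered 45 of 100 at a log2 change of 1 in size and 83 of 100 at 2. The simulation drew each gene on its own, with no library standing apart and with fewer changed genes than were called here. These rates therefore do not measure the power of the comparison of the diets.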

Additional observations from a re-analysis of the deposited data

How the results depend on the processing

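The values below are counts of genes called at an adjusted p-value under 0.05, or differences on the log2 scale. Among the 10 genes 1 was lower and 0 were higher. DESeq2's Wald test called 3 lower and 1 higher, library size only and robust=FALSE each called 1 higher, and with 1 library left out from 1 to 4 were lower and from 0 to 1 higher. Over all genes 2504 were called, 1552 higher and 952 lower. DESeq2 called 1617 lower, and limma on FPKM without a filter called 649 genes, 394 higher and 255 lower. With 1 library left out from 474 to 3940 were called, from 337 to 2368 higher and from 94 to 1572 lower. All highest counts came without HFD sample 2, the lowest count of higher genes without ND sample 1, and the lowest of all and of lower genes without HFD sample 1. The cause was not tested.

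Some signs turned when 1 library was left out. The range of the log2 fold change was -0.054 to 0.23 for Vegfc, -0.25 to 0.13 for Flt1 and -0.29 to 0.12 for Tek, and the difference of Vegfd relative to the endothelial markers ranged from -0.14 to 0.26. Vegfa, Vegfb, Vegfd, Kdr, Flt4, Angpt1 and Angpt2 had the same sign of fold change under each of the 17 alternatives. Adding a replicate block gave 1886 called genes, of which 1693 were also called without the block, and 1 of the 10 genes was called. The correlations of the deviations of same-numbered libraries were -0.0858, -0.0556 and -0.00526, which gave no sign of a pairing by number. Single libraries that stood apart could hide a pairing, so these values cannot exclude one. With 3 samples against 3, the exact permutation tests could not pass 0.05.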

Other observations

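The genes whose log2 CPM ran most like that of Vegfa over the 6 libraries, among the 10216 genes compared (protein-coding, mean log2 CPM over 3), were Klhl4, Ppp1r2 and Prrg3, with Pearson's r of 0.998, 0.997 and 0.997. For Kdr they were Ppp6r2, Tgfb1i1 and Vnn3, each with r of 0.998, and for Tek they were Notch1, Irs3 and Cdc42bpa, with r of 0.993, 0.991 and 0.990. These are descriptions over 6 libraries that include the HFD library lowest in Vegfa, Kdr and Tek, and 353 genes had r above 0.95 with Vegfa, 371 with Kdr and 42 with Tek.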
